A study of Arabidopsis thaliana with 36 samples.

Results

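RpoB ChIP in the ptac3 mutant of Arabidopsis was set against pTAC3 ChIP in the same mutant, in which the antibody has no antigen as far as the mutation removes the pTAC3 protein. The comparison used 12 of the 36 libraries of the series: 3 RpoB ChIP and 3 input libraries, and 3 pTAC3 ChIP and 3 input libraries. They were chosen by the antibody and plant line given in their labels. ChIP-seq (chromatin immunoprecipitation followed by sequencing) reports which DNA is recovered with a protein, and an input library is the same kind of chromatin sequenced without immunoprecipitation. The question was whether any RpoB signal that is left without pTAC3 exceeds what an antibody recovers when its target is missing. No 200-bp bin and no gene met the threshold for a difference between the ChIPs, and the replicates of the ChIPs overlapped in every gene class but the rpo genes.

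The chloroplast's own RNA polymerase, PEP (plastid-encoded RNA polymerase), is a bacterial-type enzyme with RpoB as its beta subunit. It transcribes photosynthesis genes and most tRNA and rRNA genes. pTAC3 is a nuclear-encoded protein of the plastid transcriptionally active chromosome that associates with PEP, and plants that lack such proteins are pale because PEP-dependent transcription fails. Phage-type RNA polymerases encoded in the nucleus (NEP) transcribe the genes for the PEP subunits and a few housekeeping genes.

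All plants were 5-day-old seedlings with no treatment, grown on 0.5-strength MS medium in continuous light (100 µmol per m2 and s) after 48 h of stratification. Each sample came from 50 seedlings, pooled, crosslinked for 4 h in 4% formaldehyde and enriched for chloroplasts. Both groups were the line labelled ptac3, and Col-0, the wild type, was used for reference only, as was RpoB ChIP in the ptac14 mutant. The genotype tag reads wild type for every sample, so the line was taken from the titles and the cell line tag. The titles of the pTAC3 libraries read only "mutant" and do not name the line. The allele was not named, and the pTAC3 gene lies in the nucleus, outside the coverage table, so the absence of the antigen was not measured. The RpoB libraries of ptac3 belong to the set that holds RpoB ChIP of ptac3 and Col-0 (the ptac3 set). The pTAC3 libraries belong to the set with pTAC3 ChIP of ptac3 and Col-0. The groups therefore differ in antibody and in set, and these cannot be told apart. The labels do not say whether replicates were grown separately, so p-values measure the spread between these samples. In pooled seedlings, less RpoB protein per plastid and less binding of the RpoB present cannot be told apart.

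Enrichment is given as log2(ChIP/input), where 0 means the share of coverage found in input. Mean coverage per position was 105, 148 and 204 in the RpoB ChIP libraries and 144, 59.2 and 173 in the antigen-free pTAC3 ChIP libraries (replicates 1, 2 and 3). The 6 inputs had 425 to 924. Counting error at a single position was between 7.0% and 13% of the mean in these ChIP libraries, for counting error only. Replicate 1 stood apart from replicates 2 and 3 in both groups: its enrichment ran against the Col-0 RpoB profile, with r = -0.13 over bins for RpoB and r = -0.34 for the antigen-free ChIP. The other replicates had r = 0.33 and 0.52 for RpoB and 0.52 and 0.29 for the antigen-free ChIP.

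Across the plastid genome, RpoB ChIP and antigen-free ChIP in ptac3 were not separated at any bin. Of 772 bins of 200 bp, 0 passed limma's test at an adjusted p under 0.05 (0%), and 34 had an unadjusted p under 0.05, 15 higher and 19 lower with RpoB, where 39 would be found by chance. limma with a trended and robust spread also called 0, with 29 unadjusted. The lowest adjusted p was 0.955. Differences ran from -0.43 to 0.40 on the log2 scale, with an SD over bins of 0.14, and the median standard error of a difference was 0.13. Data were simulated with the same number of bins and replicates, with 100 bins changed by 0.5, 100 by 1 and 572 unchanged. Noise was drawn separately for each bin. The same test called 75% of bins that differed by 0.5 and 97% of those that differed by 1 on the log2 scale. It also called 0.524% of bins without a difference. Adjustment is stricter where few bins differ, so these shares do not hold for a few sites. Differences smaller than 0.5, or at few bins, were therefore less well covered at this depth and replicate number.

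The bins where Col-0 carries RpoB were read separately, because residual binding would be looked for there first. Bound bins were the 158 of 773 bins (20.4%) above input in Col-0 RpoB ChIP of the ptac14 set, whose libraries are in neither group. The mean of the bound bins minus the mean of the other bins was -0.050, 0.20 and 0.30 in RpoB ChIP replicates 1, 2 and 3 (0.15 ± 0.18, SD, n = 3). It was -0.17, 0.36 and 0.11 in the antigen-free ChIP (0.099 ± 0.27). Both groups had 1 replicate below 0 and 2 above it, and their values overlapped. The difference was 0.052, the 9 pairwise differences between replicates ran from -0.41 to 0.47 (an exact 90% interval), and the two-sided exact permutation test gave p = 0.8, where 0.1 is the smallest p that 3 against 3 allows. It was -0.084 without antigen-free replicate 1, -0.023 without RpoB replicate 3 and 0.18 without antigen-free replicate 2, so its sign rests on single replicates. In Col-0 the same contrast was 2.31 ± 0.47 for RpoB of the ptac3 set and 2.49 ± 0.28 for pTAC3.

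**Figure D1:**
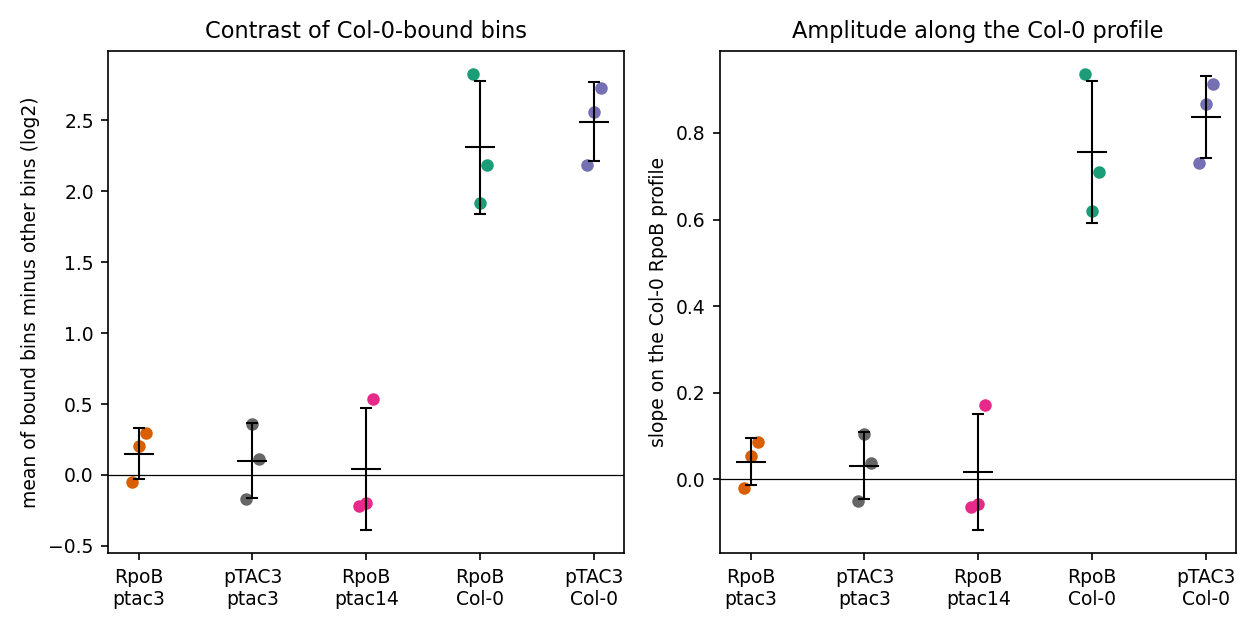
Left, mean log2(ChIP/input) of the bins bound in Col-0 minus that of the other bins; right, slope of each library's enrichment on the Col-0 RpoB profile of the ptac14 set. Points are replicates and bars the mean ± SD (n = 3); RpoB and antigen-free pTAC3 ChIP in ptac3 both lie around 0, and the lowest Col-0 replicate on the left is at 1.92.

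The slope over all bins gave the same picture. The slope of an enrichment profile on the Col-0 RpoB profile of the ptac14 set is 1 for a full-height copy and 0 for none. It was -0.019, 0.054 and 0.086 in the RpoB replicates and -0.050, 0.11 and 0.037 in the antigen-free replicates, with means of 0.040 ± 0.054 and 0.031 ± 0.078 (SD, n = 3). The difference of 0.0094 (pairwise -0.12 to 0.14, exact permutation p = 0.9) was within the spread of either group. As a percentage of the Col-0 slope of the same antibody, RpoB in ptac3 stood at -2.52%, 7.15% and 11.4%. The antigen-free ChIP stood at -5.94%, 12.6% and 4.48% of pTAC3 in Col-0. RpoB minus background came to 1.24% of the Col-0 RpoB slope, and the pairwise differences ran from -16.44% to 17.98%. The Col-0 slope was taken as its mean of 0.76, and the interval leaves out the spread of its replicates (0.94, 0.62 and 0.71). With the Col-0 slope so fixed, a remainder of RpoB binding above background larger than that upper value lay outside the interval. Smaller ones were not detectable. RpoB in ptac14, the other mutant of the series, had slopes of -0.064, -0.058 and 0.17.

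Profiles of different ChIPs correlated with each other much as replicates of the same ChIP did. Over 772 bins, enrichment profiles of RpoB replicates correlated with each other at r = 0.16 to 0.61 (median 0.30), and antigen-free replicates at r = -0.21 to 0.39 (median 0.056). The 9 pairs of an RpoB with an antigen-free library gave r = -0.23 to 0.60 (median 0.27). The group means correlated at r = 0.56 over bins and 0.65 over 113 genes. Bins and genes share their libraries and neighbouring bins share reads, so these are descriptions. The SD of enrichment over bins was 0.21 ± 0.018 for RpoB and 0.22 ± 0.055 for the antigen-free ChIP, against 1.05 ± 0.22 for RpoB in Col-0.

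tRNA genes, which decode the plastid's messages and carry strong RpoB signal in Col-0, were slightly above input in both ptac3 ChIPs. The mean over 30 tRNA genes was 0.11, 0.24 and 0.16 in the RpoB replicates and 0.063, 0.28 and 0.21 in the antigen-free replicates. All 6 values were above 0 and the groups overlapped. The means were 0.17 ± 0.062 and 0.18 ± 0.11 (SD, n = 3), a difference of -0.014 (pairwise -0.17 to 0.17, exact permutation p = 1). The sign of this difference turned in 4 of 13 alternatives, among them 0.034 without antigen-free replicate 2 and 0.014 without RpoB replicate 1. In Col-0 the RpoB value was 1.18 ± 0.16. All 3 RpoB replicates were above input in 16 of the 30 tRNA genes, all 3 antigen-free replicates in 11, and all 6 in 9. Over all 113 genes these counts were 31 (27.4%), 23 (20.4%) and 11 (9.73%), so 9 of the 11 genes above input in every library of both groups encode tRNAs.

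The 4 rRNA genes, which form an operon in the inverted repeat and encode the ribosome's RNAs, varied most between replicates of the 4 broad classes. Their mean was -0.11, 0.28 and 0.37 with RpoB and -0.27, 0.48 and 0.15 without antigen. Replicate 1 was below input and replicates 2 and 3 above it in both groups. The means of 0.18 ± 0.26 and 0.12 ± 0.38 differed by 0.063 (pairwise -0.59 to 0.64, exact permutation p = 0.8), and the difference was -0.13 without antigen-free replicate 1 and -0.031 without RpoB replicate 3. In Col-0 the RpoB value was 1.72 ± 0.28. By bins, 44 of 51 rRNA bins had a higher mean with RpoB than without antigen (median 0.13), beside 378 of all 772 bins (median -0.0030), and 0 of the 51 had an unadjusted p under 0.05. These bins share reads, replicates and an operon, so the count is not one of independent sites.

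Protein-coding genes stood near 0 in both ChIPs. The mean over 79 genes was -0.014 ± 0.043 with RpoB and 0.0055 ± 0.060 without antigen, a difference of -0.020 (pairwise -0.11 to 0.092, exact permutation p = 0.8). Differences were -0.0099 for photosystem I, -0.013 for photosystem II, -0.062 for the cytochrome b6f complex, -0.0087 for ATP synthase, -0.010 for the NDH complex and -0.012 for ribosomal proteins, with overlapping groups in each. The 4 rpo genes, which encode the PEP subunits and are read by NEP, were the only class without overlap. RpoB values there were -0.012, -0.046 and -0.052 and antigen-free values 0.029, 0.029 and -0.0046. RpoB was lower by a difference of -0.055 (pairwise -0.081 to -0.0076, exact permutation p = 0.1). The sign of this difference changed in 0 of 13 alternatives, and leaving out 1 replicate gave -0.067 to -0.047. The difference became -0.020 (exact permutation p = 0.4) when libraries were scaled to the coverage of rpoB, rpoC1 and rpoC2. That scaling sets 3 of the 4 genes of the class near 0, so a smaller difference was built in. Bins without a gene, 112 in the genome without the second repeat copy, had a mean below input in both groups. The means were -0.14 ± 0.039 with RpoB and -0.078 ± 0.081 without antigen (exact permutation p = 0.4). RpoB replicates were at -0.10, -0.18 and -0.13. Antigen-free replicates were at 0.0072, -0.15 and -0.087, so replicate 1 was not below input. After Benjamini-Hochberg adjustment over the 14 exact tests of classes and profile measures, every p was 1.

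**Figure D2:**
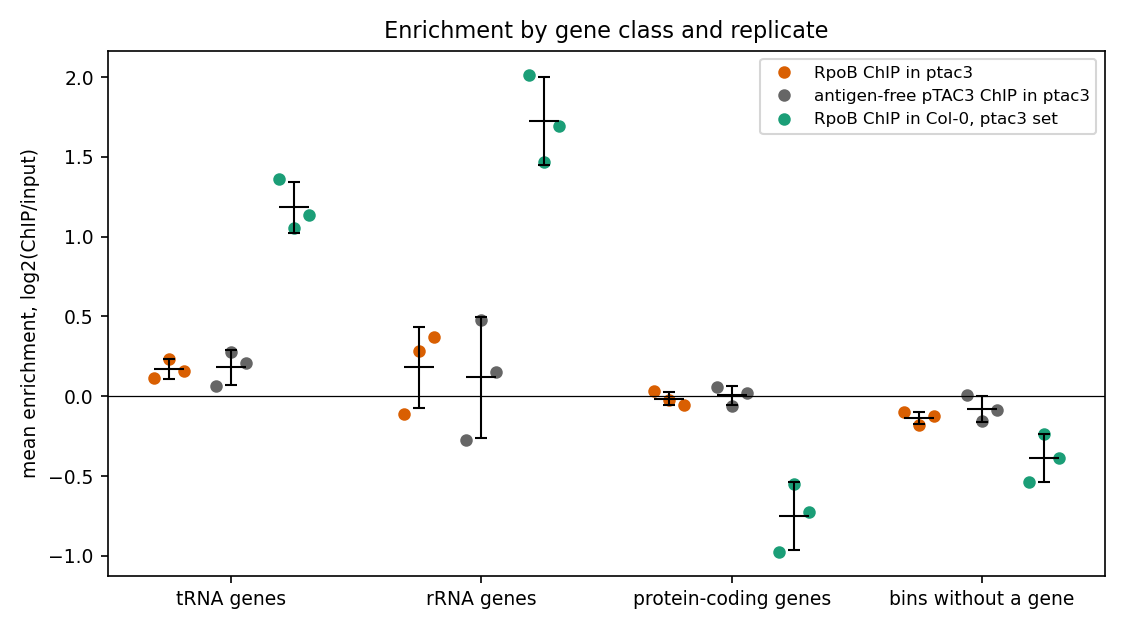
Mean log2(ChIP/input) of tRNA genes, rRNA genes, protein-coding genes and bins without a gene; points are replicates, bars the mean ± SD (n = 3). The tRNA values of both ptac3 ChIPs lie between 0.063 and 0.28, and those of Col-0 RpoB above 1.

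A local rise over tRNA genes was present in both ChIPs. Around the centres of 23 tRNA genes no longer than 100 bp, enrichment within 100 bp of the centre minus that 500 to 1000 bp away was 0.14, 0.23 and 0.17 in the RpoB replicates and 0.066, 0.27 and 0.17 in the antigen-free replicates. All 6 libraries were higher over the gene than beside it. The means were 0.18 ± 0.045 and 0.17 ± 0.10, a difference of 0.012 (pairwise -0.13 to 0.16, exact permutation p = 0.9), and Col-0 RpoB had 1.21 ± 0.25. At the centre itself RpoB stood at 0.21 ± 0.067 and the antigen-free ChIP at 0.22 ± 0.11. At a distance of 250 bp on the side of higher coordinates, they stood at -0.14 ± 0.037 and -0.067 ± 0.011, while Col-0 RpoB was still at 0.36 ± 0.089. At 250 bp on the other side they stood at -0.069 ± 0.019 and -0.023 ± 0.058, with 2 of 3 antigen-free replicates just above input there, and Col-0 RpoB at 0.27 ± 0.086. The width of the rise was not tested.

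**Figure D3:**
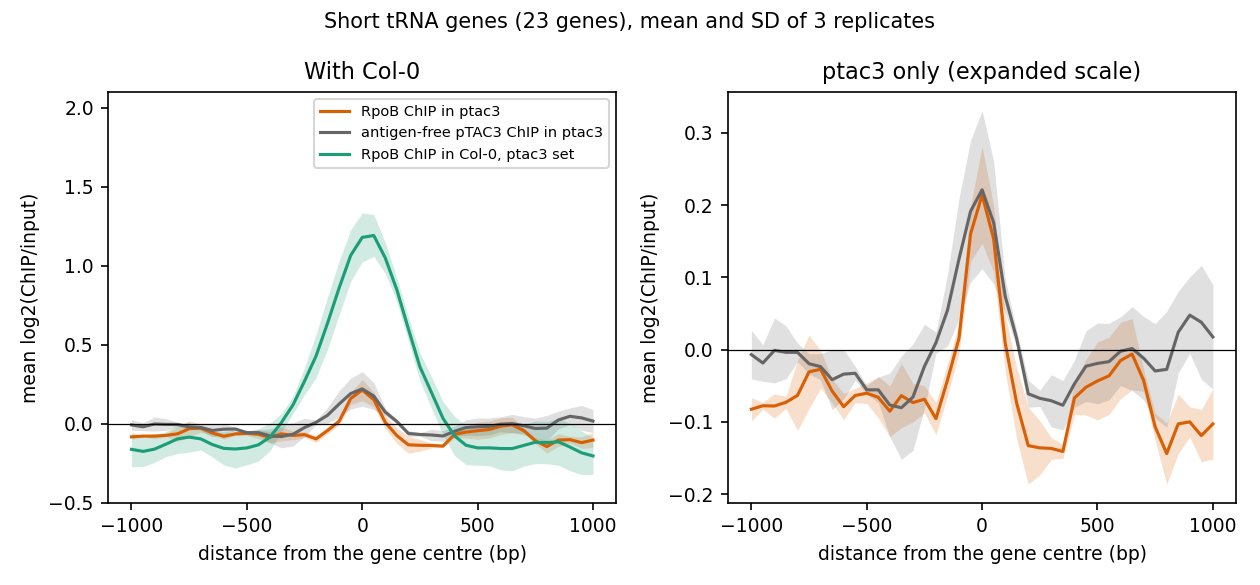
Mean log2(ChIP/input) against distance in bp from the centre of 23 short tRNA genes, with Col-0 RpoB (left) and for ptac3 alone on an expanded scale (right). Lines are means and bands SDs of 3 replicates; at the centre the ptac3 curves stand at 0.21 ± 0.067 and 0.22 ± 0.11 and Col-0 RpoB at 1.18 ± 0.16.

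Gene by gene, 0 of 128 genes passed the test (0%), 7 had an unadjusted p under 0.05 where 6 would be found by chance, and the lowest adjusted p was 0.592. limma with a trended and robust spread also called 0, with 7 unadjusted. The RpoB replicates lay above all antigen-free replicates in 6 of 113 genes (5.31%) and below them in 6 (5.31%). Among those above were psbB and petB, which encode a core antenna of photosystem II and cytochrome b6, the ribosomal protein gene rps7, the NDH subunit gene ndhI and the trnL gene ArthCt126. The 6 below were atpA of ATP synthase, psbN, which acts in photosystem II assembly, the ribosomal protein genes rpl14 and rps19, the trnG gene ArthCt092 and the trnL gene Arthct122. Members of photosystem II, ribosomal protein and tRNA genes stood on both sides.

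Genes known to be transcribed by PEP were taken as a list of 14, and genes transcribed by NEP as a list of 5. In the PEP list the mean was higher with RpoB in 13 of 14 genes (median difference 0.080), beside 53 of all 113 genes (median -0.012), and 0 of 14 were called. Leaving out single replicates turned the sign in psbA, psaA, psaB, psbE and rrn16S, so the count rests in part on single replicates. In the NEP list it was higher in 1 of 5 (median -0.035), and 0 were called. The lists were chosen with earlier results of these data known, their genes share libraries, and no test was made over a list. The exception in the PEP list was trnY, with 0.028, -0.016 and 0.16 for RpoB and -0.19, 0.54 and 0.32 without antigen. The exception in the NEP list was ycf2, a gene for a large plastid membrane protein, with a difference of 0.031.

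Within the PEP list, values of single genes overlapped in all but psbB and petB. psbA, which encodes the D1 protein of photosystem II, had -0.091, 0.18 and -0.0014 with RpoB and -0.24, 0.31 and -0.042 without antigen. The RpoB values lay inside the range of the antigen-free values, and the difference was 0.023 ± 0.15 (SE). rbcL, the gene of the large Rubisco subunit, had -0.061, 0.0066 and 0.13 with RpoB and -0.23, -0.069 and 0.038 without antigen, with a 95% interval of the difference of -0.12 to 0.34. The photosystem I reaction centre genes psaA and psaB were below input in every RpoB replicate, with differences of 0.011 and 0.0074. For rrn16S the RpoB values were -0.14, 0.30 and 0.53 and the antigen-free values -0.25, 0.57 and 0.22. For rrn23S they were -0.081, 0.30 and 0.48 with RpoB and -0.33, 0.36 and 0.10 without antigen. In both rRNA genes replicate 1 was the lowest of its group. psbC, psbD and psbE, which encode further photosystem II core subunits, differed by 0.084, 0.076 and 0.044.

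trnE, whose tRNA also serves chlorophyll synthesis, and trnD stand beside trnY in 1 transcription unit and gave the largest differences of the PEP list. trnE had 0.073, 0.57 and 0.47 with RpoB and -0.28, 0.19 and 0.49 without antigen, and trnD had 0.20, 0.55 and 0.47 with RpoB and 0.24, -0.069 and 0.33 without antigen. The groups overlapped in both. The differences were 0.24 ± 0.21 (95% interval -0.27 to 0.75) and 0.24 ± 0.14 (95% interval -0.095 to 0.57), with limma adjusted p = 0.909 for each. Leaving out 1 replicate moved trnE to between 0.032 (without antigen-free replicate 1) and 0.41 (without antigen-free replicate 3), and trnD to between 0.12 (without antigen-free replicate 2) and 0.34 (without RpoB replicate 1). trnY, in the same unit, differed by -0.17, in the other direction.

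**Figure D4:**
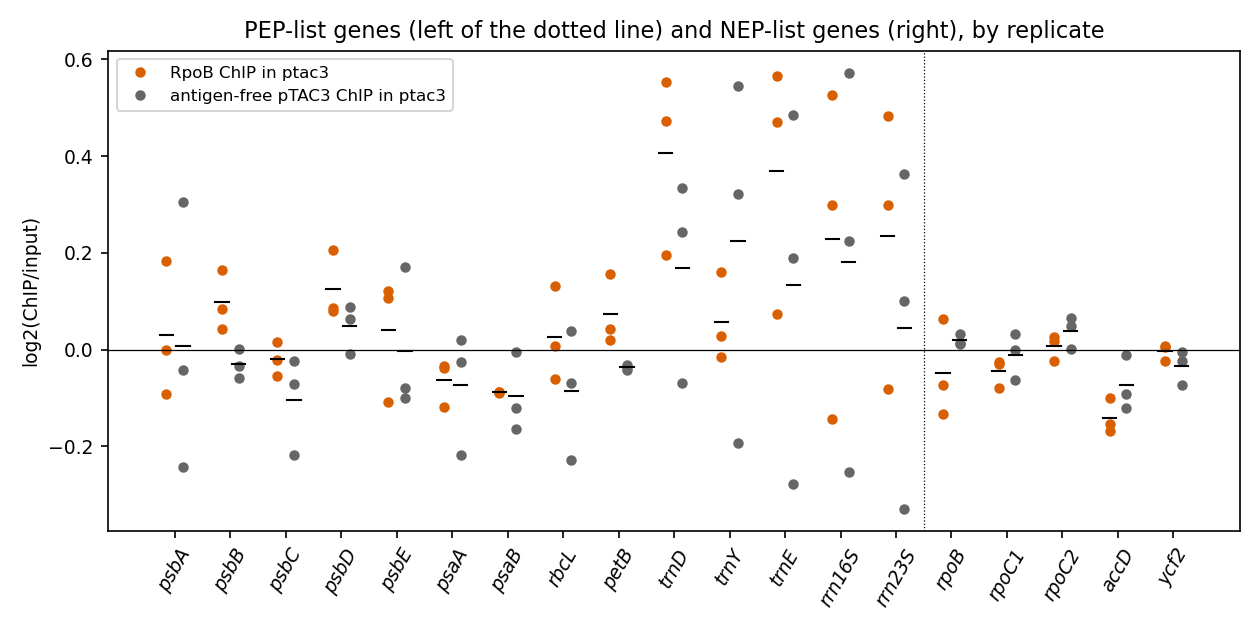
log2(ChIP/input) of the 14 PEP-list and 5 NEP-list genes in each of the 3 RpoB (orange) and 3 antigen-free (grey) replicates; black lines are means. The RpoB and antigen-free points overlap in all genes but psbB and petB, and the spread is widest in psbA, trnD, trnY, trnE, rrn16S and rrn23S.

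Among NEP-list genes, rpoB itself, the gene of the precipitated subunit, had 0.063, -0.073 and -0.13 with RpoB and 0.011, 0.033 and 0.013 without antigen. RpoB replicate 1 was the highest of all 6 and RpoB replicates 2 and 3 were the lowest. Differences were -0.066 for rpoB, -0.035 for rpoC1, -0.031 for rpoC2 and -0.067 for accD, which encodes a subunit of acetyl-CoA carboxylase. None reached an unadjusted p under 0.05.

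The largest gene differences had either sign. Among the highest, the trnL gene ArthCt126 had 0.35, 0.16 and 0.14 with RpoB and -0.053, -0.091 and 0.059 without antigen, a difference of 0.24. That gene has a copy in the second repeat (ArthCt118) that differed by 0.46 ± 0.14 (limma adjusted p = 0.592). Reads of repeat copies cannot be told apart, so values of either copy are uncertain. ndhI differed by 0.24. The lowest were rpl32 (-0.31), rpl14 (-0.30), psbN (-0.25), rps19 (-0.23) and trnQ (-0.21). rpl32 had 0.14, -0.20 and 0.19 with RpoB and 0.58, 0.15 and 0.34 without antigen, with overlap.

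**Figure D5:**
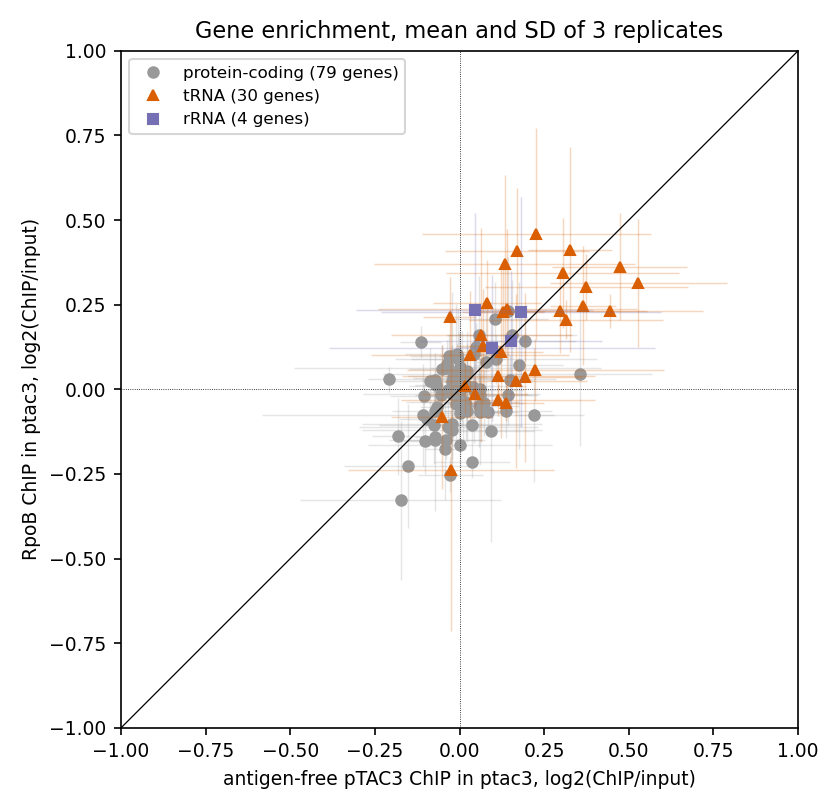
Mean log2(ChIP/input) of 113 genes in antigen-free pTAC3 ChIP (x axis) and RpoB ChIP (y axis) of ptac3; error bars are SDs of 3 replicates and the solid line marks equality. tRNA genes (triangles) lie above input in both ChIPs for the most part and on both sides of the line.

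The genes with the strongest RpoB signal in Col-0 of the ptac14 set were trnE, the trnL gene Arthct122, rrn16S, trnP and trnQ. In ptac3 the highest of these with RpoB was trnE, and the highest without antigen was trnQ. trnQ had 0.10, 0.37 and 0.47 with RpoB and 0.27, 0.52 and 0.79 without antigen. Arthct122 had 0.17, 0.26 and 0.26 with RpoB and 0.29, 0.76 and 0.28 without antigen, and trnP differed by -0.073. Of the 38 genes above input in Col-0 RpoB ChIP of the ptac3 set, 35 had an upper 95% limit of RpoB minus background below their Col-0 enrichment: 28 of 30 tRNA genes, 4 of 4 rRNA genes and 3 of 4 protein-coding genes. The Col-0 enrichment was a mean over input, with no background subtracted and its spread left out. The trnR gene ArthCt093 passed by little, with a limit of 0.394 against 0.398 ± 0.13 (SD) in Col-0. The 3 others had weak Col-0 enrichment, at 0.32 for rbcL, 0.36 for ArthCt126 and 0.30 for the trnS gene ArthCt125.

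Set against input rather than against the antigen-free ChIP, RpoB ChIP in ptac3 did give calls. limma called 2 bins higher than input (0.259% of 772) and 19 lower (2.46%), in 17 runs along the genome, with 183 at an unadjusted p under 0.05. The antigen-free ChIP gave 0 calls against its input (0%), with 72 unadjusted. The count for RpoB was 38 without replicate 1, 0 without replicate 2 and 12 without replicate 3. The split between directions moved as well, to 20 higher and 18 lower without replicate 1, and to 0 higher and 16 lower when libraries were scaled to their median bin. Without replicate 3 it was 1 higher and 11 lower, and the antigen-free count was 6 without its replicate 1. A call in one ChIP and not in the other is no difference between them, and the direct test called 0 bins. The inputs of the groups, both unprecipitated ptac3 DNA, differed at 0 bins (0%), with 110 unadjusted where 39 would be found by chance, and at 1 without RpoB replicate 2.

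The higher bins lay in rrn23S (105801 to 106000, in positions of the coverage table) and at a trnR gene (108201 to 108400). Both are in the rRNA operon region of the first repeat copy, and no bin of the second copy was called higher. Reads of repeat copies cannot be told apart, so values of either copy are uncertain. The trnR gene of the second copy (ArthCt115) had -0.014, 0.53 and 0.50 with RpoB. In the rrn23S bin RpoB had 0.16, 0.37 and 0.56 and the antigen-free ChIP -0.29, 0.39 and 0.033. In the trnR bin RpoB had 0.13, 0.58 and 0.44 and the antigen-free ChIP 0.036, 0.61 and 0.073. Antigen-free replicate 2 was above RpoB replicate 2 in both bins, and the groups overlapped. The lower bins formed 15 runs, and the antigen-free mean was below input in 15 of 15 as well. Over all 772 bins the median antigen-free value was -0.012. RpoB was lower than the antigen-free mean in each run. Every RpoB replicate was below every antigen-free replicate in 5 runs, and the groups overlapped in 10. The runs were picked for low RpoB values, so these counts are no test of a difference. The lowest runs were bins without a gene at 119001 to 119200 (-0.59 with RpoB, -0.18 without antigen) and at 4601 to 5000 (-0.57 and -0.24). The run at 1 to 400 had -0.42 and -0.19. It holds trnH (4 to 76) and the edge of psbA (383 to 1444), and most of it lies between these genes. Over the gene bodies RpoB had -0.082 for trnH and 0.031 for psbA, and the antigen-free ChIP had -0.051 and 0.0073.

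By RpoB minus background, the highest bins were in psbC at 33801 to 34000 (0.40), ndhI at 119601 to 119800 (0.40), a trnL gene at 144201 to 144400 (0.35) and rrn23S at 106001 to 106200 and 105001 to 105200 (0.32 each). In the psbC bin RpoB had 0.013, 0.14 and 0.25 and the antigen-free ChIP -0.58, -0.36 and 0.16. In the ndhI bin RpoB had 0.23, 0.16 and 0.063 and the antigen-free ChIP -0.18, -0.35 and -0.21, without overlap. Of the 5 lowest bins 4 hold no gene, as do 135 of all 772. These were at 4801 to 5000 (-0.43), 119001 to 119200 (-0.41), 29401 to 29600 (-0.41) and 36201 to 36400 (-0.38), and the other was a ycf1 bin at 128801 to 129000 (-0.38). Their limma adjusted p was at or above the lowest of all bins, 0.955.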

How the data were processed

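Plastid coverage of ChIP and input libraries was compared between 2 groups of 3 replicates in ptac3. The authors deposited 1 table of read coverage in whole numbers (a signal, entered as other) with 154477 positions and 1 column per library. That the values are coverage was read from the values; their normalization is not stated, and column means differ between libraries. Trim Galore 0.4.1, Bowtie2, bedtools 2.25.0 and the build TAIR10 are named in the submitters' processing notes, without roles or settings. The handling of reads from the inverted repeat is not given in the sources used here. Gene names came from RefSeq (TAIR10.1). Its coordinates were checked by mirroring coverage steps between the repeat copies: the best offset among up to 50 bp was 0 in 12 of 12 libraries. Of 129 gene entries 128 were used, after 1 with equal coordinates was left out, and 113 when a gene entered in both repeat copies was counted once, in the first; 1 rRNA gene (ArthCr091) is entered in the second copy only and was kept. No sequence was at hand, so none is shown.

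Each library was scaled to its mean, so values are relative shares. A pseudocount of 5% of that mean was added before log2, and ChIP was divided by the input of the same replicate number. Values were taken in 200-bp bins (772 of 773; 1 with input under 10% of the median was left out) and over gene bodies. Bins and genes were tested with limma 3.58.1 in R 4.3.3 (two-sided, Benjamini-Hochberg, threshold 0.05), class means and profile measures with exact permutation tests (scipy 1.17.1). Coverage is not a read count, so no count model was used. The limma step was tested on simulated data. No 2 of the 12 libraries were identical, and in the 66 pairs the coverage at positions 300 bp apart differed by more than sampling noise, with a reduced chi-square of 1.22 or more. Mean coverage limits precision as given with the results.

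Named genes were the PEP and NEP lists, the 5 highest and 5 lowest differences among first-copy genes, and the 5 highest Col-0 RpoB values in the ptac14 set; 1 of these 29 genes is not reported here. Bins named were runs called against input and the 5 highest and 5 lowest differences. The higher bins against input, genes without overlap and genes outside or near the Col-0 limit were named after their values were seen. The comparison, members and lists were chosen with earlier results of these data known. Alternatives covered the pseudocount, scaling, input, bin size, filter, repeat copy, other limma fits, a replicate block and leaving out each replicate.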

Additional observations from a re-analysis of the deposited data

Results flagged for a closer look

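In petB, which encodes cytochrome b6, every RpoB replicate was above input and every antigen-free replicate below it. RpoB values were 0.16, 0.043 and 0.021, antigen-free values -0.041, -0.035 and -0.031, and the difference was 0.11 ± 0.072 (SE; limma adjusted p = 0.909 over 128 genes). It did not pass the test.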

How the results depend on the processing

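The count of bins that differed between RpoB and antigen-free ChIP was 0 in 20 of 20 alternatives (2 to 110 at an unadjusted p under 0.05, lowest adjusted p 0.423), and that of genes 0 in 17 of 17 (1 to 12 unadjusted, lowest adjusted p 0.124). Of 377 values of the 29 genes chosen by the naming rule under alternatives, 0 were called and 14 changed sign, in 7 genes. Exact tests gave no p under 0.1, but 0.1 is the smallest p that 3 against 3 allows, and fewer replicates allow only larger ones. That outcome was therefore fixed in advance. Between replicates left out in turn, bound minus rest ran from -0.084 to 0.18, the profile slope difference from -0.031 to 0.047, the tRNA difference from -0.074 to 0.034 and the rRNA difference from -0.13 to 0.24. Bins of RpoB ChIP called against input, 21 as reported, ran from 0 to 38 when a replicate was left out, and were 93 in 50-bp bins, of which there are more to test, and 38 with the replicate block. For antigen-free ChIP against input that range was 0 to 6, and for input against input 0 to 1, with 10 under the replicate block. The cause of these changes was not tested.

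Replicate numbers were not taken as pairs: deviations of same-numbered RpoB and antigen-free libraries correlated at 0.51, 0.26 and 0.039, and RpoB replicate 3 correlated best with antigen-free replicate 2 (0.34). With the replicate block, 0 bins (52 unadjusted) and 0 genes (11 unadjusted) were called between the ChIPs. ChIP and input of the same number correlated between -0.31 and 0.17, so dividing by the same-numbered input rests on the number alone; with the mean input of the group, 0 bins (45 unadjusted) and 0 genes (11 unadjusted) were called. Antigen-free replicate 2 had the lowest depth, with mean coverage 59.2.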
